A study of Mus musculus with 90 samples.

Results

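The collagen and laminin genes are the 55 genes of the whole-transcriptome probe panel whose names follow the pattern of a collagen chain (Col, a type number, a, a chain number) or of a laminin chain (Lama, Lamb or Lamc and a number). They comprised 44 collagen and 11 laminin genes of 19962 genes measured. All 55 were kept, whatever their signal. The tissue was mouse brain and the assay GeoMx spatial profiling, in which barcoded probes on the RNA of a section are released by light from a drawn area of interest (AOI) and counted by sequencing. The brains, fixed in formalin and embedded in paraffin, came from 6 mice under chronic social stress (CSS) and from 4 control (ctrl) mice. AOIs lay in the hippocampal fields CA1 and CA3, the somatosensory (SS) and motor (MC) cortex and the choroid plexus (CP), in matching places of each brain per the series design, and each carried a label of high or low p16. This protein is the cell cycle inhibitor encoded by Cdkn2a, a marker of senescent cells. The sources used here give neither how the p16 label was assigned nor the strain, sex and age of the mice.

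Collagens and laminins are the structural proteins of the extracellular matrix. Collagens are trimers of alpha chains: fibrillar types such as I, III and V build tensile fibres, type IV builds the meshwork of basement membranes, and smaller families decorate fibrils, form short-chain networks or span the cell membrane. A laminin is a heterotrimer of an alpha, a beta and a gamma chain that polymerises next to cells and anchors the basement membrane to them. Brain parenchyma holds little matrix of these kinds outside its vessels, whereas the choroid plexus is a secretory epithelium that sits on a basement membrane over a stroma of fibroblasts and fenestrated vessels.

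The design left 90 AOIs, 46 labelled p16 high and 44 p16 low. CP was represented by 16 AOIs (9 high and 7 low) from 5 CSS and 4 control mice, and the other subregions by AOIs of all 10 mice. An AOI held between 184469 and 2098984 recovered counts, of which 256 to 4307 belonged to the 55 genes. The deposited signal was scaled to a common median of 22.1 over genes in each AOI, and the signal of the negative control probe, the background, ran from 10.8 to 18.1. Of the values of the collagen and laminin genes, 32.3% did not exceed the background of their own AOI, against 22.7% for all genes. The negative probe itself differed between places: in CP it was lower than in the other subregions in 9 of 9 mice (mean log2 difference -0.15), and in hippocampus lower than in cortex in 10 of 10 (-0.25). A probe's signal depends on the probe, so levels are compared within a gene or against the negative probe and never between genes. In an AOI that holds many cells, fewer cells of a type and less RNA per cell cannot be told apart.

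By a mean signal of at least 2 times the negative probe, 24 of the 55 genes were clearly above background in some subregion, against 50.3% of all genes. CP had 20 such members, CA1 had 7, CA3 had 4, SS had 2 and MC had 1. The corresponding shares of all genes were 38.0% in CP, 41.3% in CA1, 36.6% in CA3, 25.8% in SS and 24.9% in MC. The 4 genes that passed elsewhere but not in CP were Col11a1, Col25a1, Col6a1 and Lamc1, and Lamc1 missed it in CP by little, at 1.99 times the negative probe. The remaining 31 members stayed below this level in every subregion. Among them were the classical cartilage chain Col2a1, the skin chains Col7a1, Col17a1 (a transmembrane collagen) and Lamb3, and Col9a1.

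**Figure D1:**
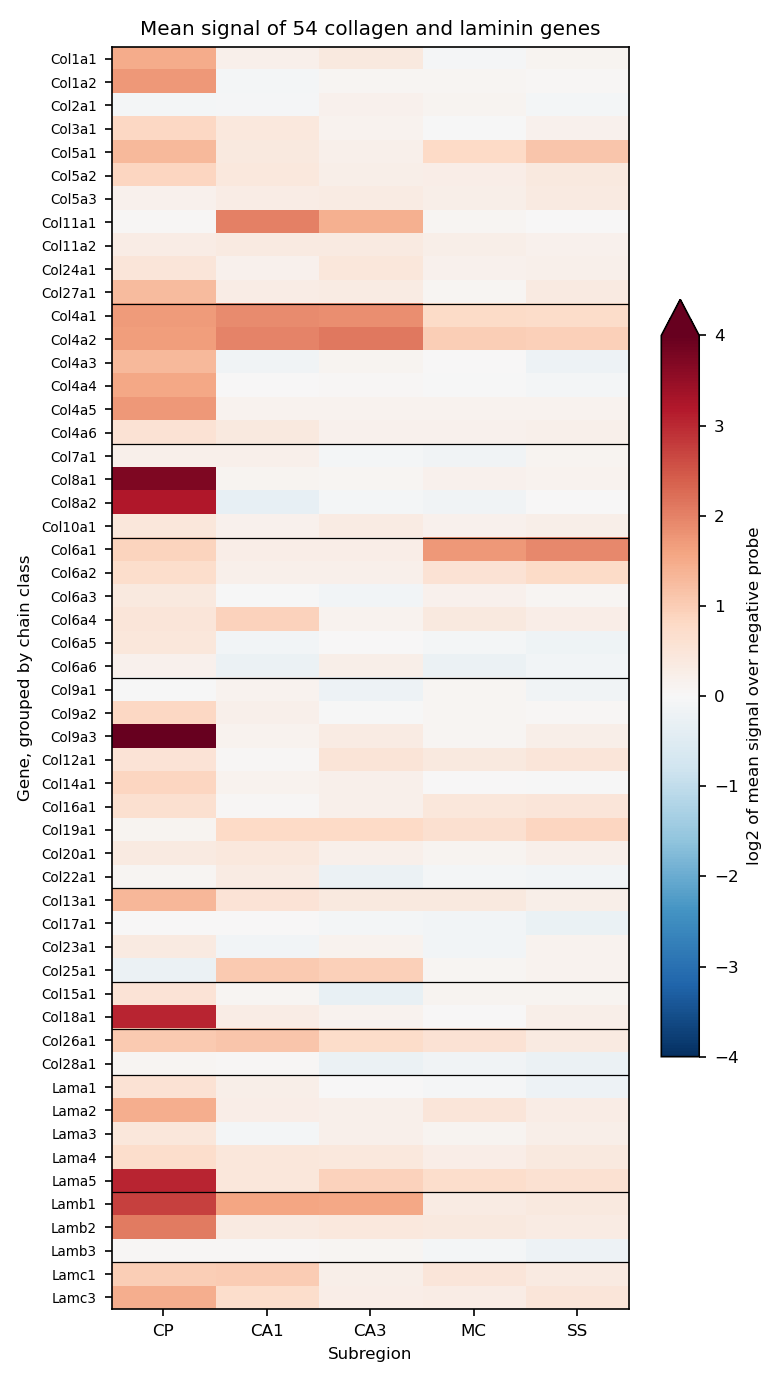
Mean signal of 54 of the 55 genes over the negative probe, as log2, by subregion (columns) and chain class (rows, classes separated by lines). White is the level of the negative probe, and the colour scale ends at 4, above which lies Col9a3 in CP, at 87.1 times the negative probe. The CP column holds most of the dark cells, Col4a1, Col4a2 and Lamb1 are also raised in CA1 and CA3, Col11a1 is raised in CA1 and CA3 alone, and Col6a1 is raised most in MC and SS.

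The first comparison set CP against the mean of the other 4 subregions of the same 9 mice. In CP, 25 of the 55 genes were called higher, against 20.6% of all genes, and 4 were called lower, against 19.6% of all genes (limma, adjusted p under 0.05). In either direction 40.2% of all genes were called. Some genes called higher stayed below 2 times the negative probe in CP. They were Col14a1, Col15a1, Col3a1, Col6a5, Col9a2, Lama1 and Lamc1, at means from 1.36 to 1.99 times the negative probe. The median log2 difference was 0.22 over the 55 genes and -0.03 over all genes. The call covered every class but the other collagens Col26a1 and Col28a1, and it was strongest for chains of short-chain networks, of a fibril-associated collagen, of a multiplexin and of laminins. Of the 25 genes called higher, 18 were called under each of the other settings that tested them. Scaling to the negative probe called all 25 and 5 more, 30 in all against 28.5% of all genes, with 3 lower against 14.4% of all genes.

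Col9a3 (chr2:180598102-180622192) encodes a chain of type IX collagen, a fibril-associated collagen best known from cartilage. Its CP signal was 849, 1037, 1344, 1194 and 1363 in the 5 CSS mice and 1407, 1044, 699 and 1261 in the 4 control mice. In the other subregions the mean of each mouse lay near the negative probe, and no mouse exceeded 24.4 in any of them. No value in CP overlapped with any value elsewhere, and the lowest belonged to control mouse 1175. The mean was 1133 in CP and 16.9 in the other subregions, a log2 difference of 6.00 (SE 0.09, adjusted p = 8.61e-20, higher in 9 of 9 mice). The chains that complete the type IX trimer differed by less or were not called. Col9a1 was at the level of the negative probe in CP, with a signal of 13.1 against 14.8 elsewhere (log2 difference -0.20, 95% interval -0.57 to 0.16). Col9a2 was called higher but by less, at 23.5 against 15.7 (0.59, SE 0.12).

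The chains of type VIII collagen, a short-chain network collagen of vessel walls and of the basement membrane of the corneal endothelium, were both higher in CP. Col8a1 (chr16:57624256-57754737) had CP signals from 116 to 219 with a median of 173, against a mean of 15.6 elsewhere (log2 difference 3.48, SE 0.14). Col8a2 (chr4:126286794-126314330) had CP signals from 72.9 to 166 with a median of 110.3, against 13.7 elsewhere (3.08, SE 0.15). Elsewhere both stood at 0.80 to 1.12 times the negative probe on average, so these log2 differences are from a level at background. Of the other genes in this class, Col10a1 and Col7a1 were not called.

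Col18a1 (chr10:77052178-77166530) encodes the multiplexin of epithelial and vascular basement membranes, whose end fragment is endostatin. Its CP signal ran from 60.9 in control mouse 1175 to 154 in CSS mouse 1170, with a median of 100.1, and its mean of 106 compared with 16.8 elsewhere (log2 difference 2.60, SE 0.14, adjusted p = 2.96e-12). Its relative Col15a1 differed by 0.45 (19.2 against 14.6), a call that was lost with the p16 low AOIs alone.

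Among the laminins, the chains of the laminins of mature epithelial and vascular basement membranes stood out. Lama5 (chr2:180176373-180225904), the alpha chain of those laminins, had CP signals of 79.4 to 129 with a median of 109, against a mean of 24.6 elsewhere (log2 difference 2.17, SE 0.11, adjusted p = 2.55e-12). For the beta chains, Lamb1 (chr12:31265146-31329644) averaged 87.3 in CP and 30.6 elsewhere (1.58, SE 0.11), and Lamb2 (chr9:108479847-108490530) 56.2 and 19.5 (1.50, SE 0.10). No CP value of Lama5, Lamb1 or Lamb2 lay within the range of the same mice's means over the other subregions, as the plot of single mice shows. Lamc3, a gamma chain, differed by 0.87 (36.3 against 19.8), and Lama2, the alpha chain that is lost in merosin-deficient muscular dystrophy, by 0.94 (36.6 against 19.0). Lamc1, the common gamma chain, differed by 0.31 (26.1 against 21.6, higher in 7 of 9 mice, limma adjusted p = 0.0359). The call was lost without any 1 of mice 1151, 1162, 1168, 1170 and 1182, and with either p16 label alone. The mean of Lamc1 in CA1, 26.4, was about that in CP. Lama1 differed by 0.35 and its call was lost without any 1 of 8 of the 9 mice. Lama3, Lama4 and Lamb3 were not called, with log2 differences from -0.03 to 0.14.

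**Figure D2:**
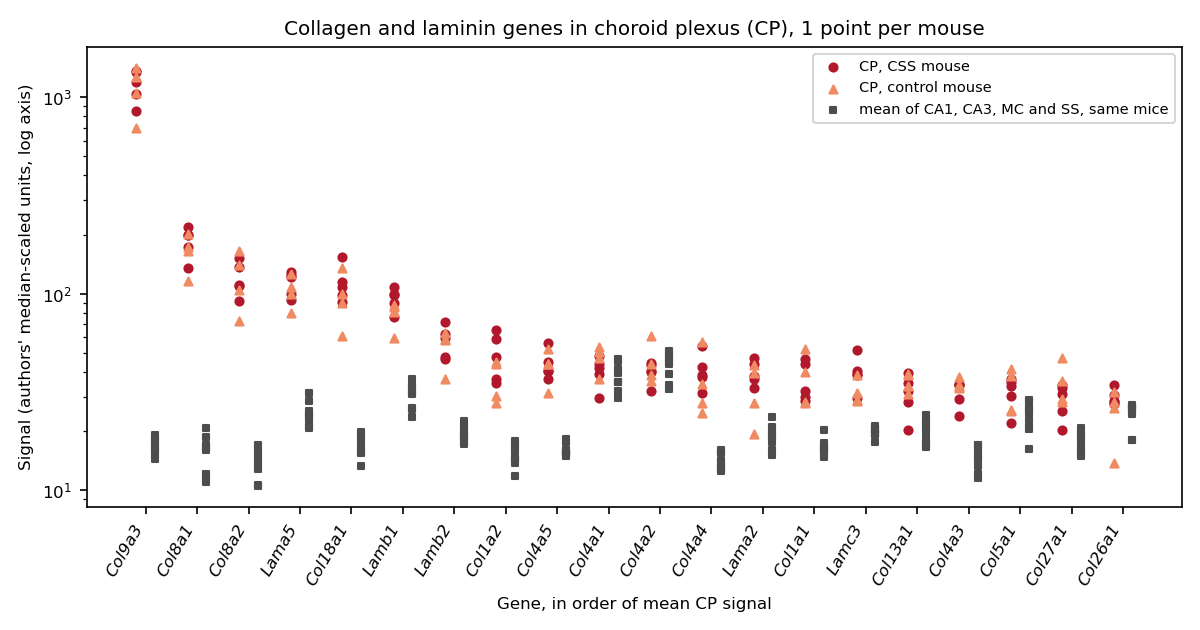
Signal of the 20 genes at 2 or more times the negative probe in CP, on a log axis, 1 point per mouse, for CP in 5 CSS and 4 control mice and for the mean of CA1, CA3, MC and SS of the same 9 mice. Col9a3 in CP spans 699 to 1407, CSS and control mice intermingle for every gene, and the CP points overlap those of the other subregions for Col4a1, Col4a2, Lama2, Col13a1, Col5a1, Col27a1 and Col26a1.

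Type IV collagen has 6 chain genes, arranged as pairs that face away from each other, and 4 of the 6 were called higher in CP. Col4a1 and Col4a2, on chromosome 8, make the widespread network of vascular basement membranes. Col4a3 and Col4a4, on chromosome 1, combine with Col4a5 into the network best known from the kidney glomerulus. Col4a6, the neighbour of Col4a5 on chromosome X, joins Col4a5 in other epithelia. In CP, Col4a3 had signals of 23.9 to 37.7 with a median of 34.3, Col4a4 of 24.8 to 56.9 with a median of 37.8, and Col4a5 of 31.4 to 56.4 with a median of 44.0. Elsewhere the means of these genes were 14.5, 14.1 and 16.1, at the level of the negative probe. The log2 differences were 1.19 for Col4a3 (SE 0.11), 1.40 for Col4a4 (SE 0.13) and 1.36 for Col4a5 (SE 0.10). Each was higher in 9 of 9 mice and called under each of the other settings that tested it. Col4a6 was not called, at 19.5 against 17.4 (0.17, 95% interval -0.07 to 0.42).

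Col4a1 and Col4a2 were above background in CP and in the hippocampus alike. Col4a1 averaged 43.4 in CP against 38.0 elsewhere (log2 difference 0.26, SE 0.09, limma adjusted p = 0.0214). Its CP mean lay below those of 48.2 in CA1 and 50.1 in CA3. The call was lost without control mouse 1168, with p16 low AOIs alone, and without the mouse as a block. Col4a2 averaged 42.1 against 43.5 (0.01, 95% interval -0.18 to 0.20).

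**Figure D3:**
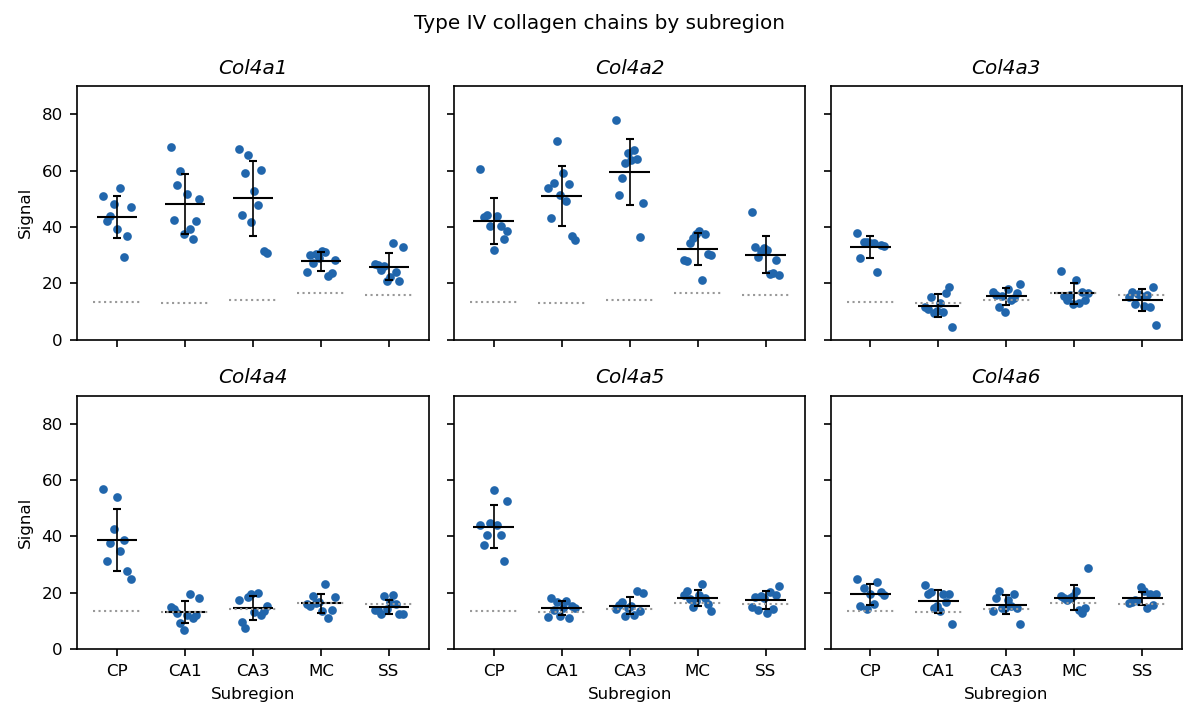
Signal of the 6 type IV collagen chain genes by subregion, 1 point per mouse (9 mice in CP, 10 elsewhere), with the mean (line) and SD (bars) over mice and the mean negative probe (dotted). Col4a3, Col4a4 and Col4a5 leave the negative probe in CP, Col4a6 stays near it everywhere, and Col4a1 and Col4a2 stand above it in all subregions, more so in CA1 and CA3 than in MC and SS.

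The start regions of these pairs are shown to set the calls of neighbouring genes beside their arrangement. In CP, Col4a3 and Col4a4 were both called higher, whereas Col4a1 was called without Col4a2 and Col4a5 without Col4a6. In the hippocampus, Col4a1 and Col4a2 were both called higher than in cortex. In RefSeq's annotation of GRCm38.p6, Col4a1 and Col4a2 overlap at their starts by 85 bases, Col4a4 and Col4a3 by 114 bases, and the starts of Col4a6 and Col4a5 have 1274 bases between them. Each window is 300 bases long and is written 5′ to 3′ on the gene's own strand. That of Col4a2 runs from 250 bases before to 50 bases after the gene start used for the overlaps. Those of Col4a4, Col4a6 and Col4a5 contain that gene start but are placed around another position. The windows are Col4a2 at chr8:11312555-11312854 (plus strand), Col4a4 at chr1:82586800-82587099 (minus strand), Col4a6 at chrX:141474027-141474326 (minus strand) and Col4a5 at chrX:141475169-141475468 (plus strand). Capitals mark the bases that lie under both genes of a pair, 50 in the window of Col4a2, 114 in that of Col4a4 and 0 in the others.
Col4a2: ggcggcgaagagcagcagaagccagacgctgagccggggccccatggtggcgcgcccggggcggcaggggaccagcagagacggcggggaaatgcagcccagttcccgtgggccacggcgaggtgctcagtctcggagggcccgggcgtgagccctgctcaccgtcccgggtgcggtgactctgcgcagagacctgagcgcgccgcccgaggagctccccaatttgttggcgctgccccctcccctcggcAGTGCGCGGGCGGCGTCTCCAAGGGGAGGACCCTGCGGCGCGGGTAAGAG
Col4a4: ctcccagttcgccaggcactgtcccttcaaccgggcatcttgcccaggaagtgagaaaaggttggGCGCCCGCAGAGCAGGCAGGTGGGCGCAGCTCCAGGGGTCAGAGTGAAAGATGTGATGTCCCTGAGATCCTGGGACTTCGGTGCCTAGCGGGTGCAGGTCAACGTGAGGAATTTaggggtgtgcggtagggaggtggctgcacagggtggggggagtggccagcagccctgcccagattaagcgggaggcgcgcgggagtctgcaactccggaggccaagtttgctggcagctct
Col4a6: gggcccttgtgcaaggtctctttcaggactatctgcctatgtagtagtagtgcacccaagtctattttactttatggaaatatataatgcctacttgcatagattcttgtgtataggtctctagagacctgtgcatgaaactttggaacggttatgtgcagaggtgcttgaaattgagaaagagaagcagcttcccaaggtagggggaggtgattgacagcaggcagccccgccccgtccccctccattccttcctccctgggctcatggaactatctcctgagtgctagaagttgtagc
Col4a5: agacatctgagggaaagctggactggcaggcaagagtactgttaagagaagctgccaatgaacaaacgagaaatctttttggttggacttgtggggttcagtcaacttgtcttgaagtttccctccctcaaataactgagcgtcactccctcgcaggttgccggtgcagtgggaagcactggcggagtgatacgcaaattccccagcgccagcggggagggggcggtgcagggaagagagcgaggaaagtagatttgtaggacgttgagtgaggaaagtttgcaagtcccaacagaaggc
The window of Col4a2 is 73.7% G and C with 33 CpG dinucleotides, that of Col4a4 63.3% with 14, that of Col4a5 52.7% with 11 and that of Col4a6 48.3% with 3. Of the 55 genes, 40 had such a window in the RefSeq table used here. The GC box letters GGGCGG occurred on either strand in the windows of 25 of the 40, against 35.9% of all 27025 windows, and in 13 of the 18 windows of genes called higher in CP. CCAAT occurred in 13 of the 40 (37.9% of all windows) and TATAAA in 5 (14.2%). TAATCC, the letters bound by homeobox factors of the OTX type, occurred in 1, that of Lamb2 (7.2%).

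Of 11 fibrillar collagen genes, whose products build the fibres that fibroblasts lay down, 5 were called higher in CP, against 20.6% of all genes, and 1 lower, against 19.6%, with a median log2 difference of 0.30. Col1a2 (chr6:4505618-4541543) had CP signals from 28.0 to 65.4 with a median of 44.1, and averaged 43.5 against 15.2 elsewhere (log2 difference 1.50, SE 0.12, adjusted p = 1.97e-09). Its partner in type I collagen, Col1a1 (chr11:94936224-94953042), had CP signals from 27.7 to 52.4 with a median of 31.9, and averaged 36.6 against 16.6 (1.08, SE 0.11). Type I chains were thus near the negative probe outside CP and above it in each mouse's CP. Col3a1 (0.52), Col5a1 (0.53) and Col27a1 (0.78) were called as well, Col3a1 not with p16 low AOIs alone. CP was not the highest subregion for Col5a1. Its mean was 32.1 in CP, 34.0 in SS and 28.2 in MC, against 17.2 in CA1 and 16.1 in CA3. The gene called lower was Col11a1 (-0.88), and Col2a1, Col5a2, Col5a3, Col11a2 and Col24a1 were not called.

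Of the remaining classes, Col13a1, a transmembrane collagen, was higher by 0.73 (33.0 against 19.9), Col14a1, a fibril-associated collagen, by 0.61 (24.2 against 15.5), and Col6a5 by 0.42 (17.9 against 13.9). The call of Col13a1 was lost with p16 low AOIs alone, and that of Col6a5 also with p16 high AOIs alone and without mouse 1163 or 1170. The 4 genes called lower in CP were Col25a1 (-0.89), Col11a1 (-0.88), Col19a1 (-0.76) and Col6a1 (-0.33). In CP these averaged 11.6, 13.7, 14.4 and 24.5, so that the first 3 were at or near background there. The call of Col6a1 was lost in 10 of 18 other settings, among them without any 1 of 6 mice. The CP mean of Col6a1 lay above its means in CA1 and CA3 and below those in MC and SS. Its lower call therefore holds against the average of these subregions and not against the hippocampus.

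The genes that process, bind and degrade these proteins were counted from lists, to be read against the 20.6% of all genes called higher in CP and the 19.6% called lower. In CP, 16 of 32 collagen-processing genes were called higher and 2 were called lower, with a median log2 difference of 0.29. Among them were Pcolce, which enhances the removal of the procollagen tail (252 against 14.6, 4.08), Pcolce2 (2.48), the collagen chaperone Serpinh1 (95.6 against 16.7, 2.50) and the proline isomerase Ppib (1.20). Of 17 basement membrane partners, 11 were called higher and 2 lower (median 1.04), among them nidogen Nid2 (2.69), perlecan Hspg2 (2.58), Frem1 (2.09) and Sparc (1.90). Of 21 receptors, 12 were called higher and 0 lower (median 0.57), among them the collagen receptor Ddr1 (2.05), Antxr1 (2.54), the shared integrin subunit Itgb1 (1.55) and the laminin receptor Bcam (1.98). Of 18 proteases and inhibitors, 9 were higher and 3 lower (median 0.24), with the lysosomal protease Ctsl at 2.76, the inhibitors Timp3 at 3.14 and Timp2 at 2.39, and the membrane protease Mmp17 at -2.76. Of 11 small leucine-rich proteoglycans, which sit on collagen fibrils, 7 were higher and 0 lower (median 0.71), among them Prelp (3.74), Dcn (2.15), Bgn (1.85) and Ogn (1.55).

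The CP AOIs carried the markers of several cell types at once, read against the same shares of all genes. Of 15 epithelial markers, 14 were called higher in CP and 0 lower, and Ttr, the carrier protein that defines this epithelium, averaged 79215 there against 78.6 elsewhere. Of 20 markers of stromal and leptomeningeal fibroblasts, 13 were higher and 1 lower, with Mgp at 3.82, Fbln1 at 1.87, Islr at 1.84 and Lum at 0.80. Of 16 endothelial markers, 11 were higher and 1 lower (Pecam1 0.72), of 14 mural markers 6 and 0 (Pdgfrb 0.62), and of 8 ependymal markers 6 and 0. Of 12 macrophage and microglia markers 0 were called (1 had an unadjusted p under 0.05), and of 12 neuronal markers all were lower, Snap25 at 29.7 against 1730. The summed fibroblast signal ran from 790 to 1024 in CSS and from 713 to 1060 in control mice. The summed epithelial signal ran from 78877 to 109637 and from 59569 to 115151. Genes of high signal weigh most in such sums, which do not measure cell numbers. In CSS mouse 1163, Ttr gave 91702 of 109637, and in CSS mouse 1157, Mgp gave 379 of 1024. The same 20 fibroblast genes summed to between 268 and 338 in CA1. Control mouse 1175 had the lowest CP signal of Ttr, at 48483, and also the lowest of Col9a3, Col8a1, Col8a2, Col18a1, Lama5, Lamb1, Lamb2 and Col1a2. Its low values were not confined to CP. Its summed neuronal signal was the lowest of all mice in CA1 (7506), CA3 (7248) and SS (3823), and its summed astrocyte signal in every subregion. Its negative probe was the highest of all mice in CP (16.2), CA1 (15.8), CA3 (16.8) and MC (18.1), though not in SS. The cause was not tested. The part of each cell type in the differences of the collagen and laminin genes was not tested.

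The next comparison set the hippocampus (CA1 and CA3) against the cortex (MC and SS) in 10 mice. Here 5 of the 55 genes were called higher in the hippocampus, against 34.4% of all genes, and 19 were called lower, against 16.7% of all genes, while 51.1% of all genes were called in either direction. The median was -0.20 over the 55 genes and -0.03 over all genes. The genes called higher were Col11a1, Lamb1, Col4a1, Col4a2 and Col25a1, and all of these were called under each of the other settings that tested them. Of those called lower, the same held for 5, among them Col6a1, Col5a1, Col6a2 and Col16a1. The other 14 had log2 differences from -0.24 to -0.51, beside the difference of -0.25 in the negative probe. With AOIs scaled to the negative probe 6 members were higher, against 46.4% of all genes, and 5 lower, against 1.68%, and the 5 were those called under each setting. With scaling to the 75th percentile 5 were higher, against 18.8% of all genes, and 49 lower, against 62.4%.

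Col11a1 (chr3:114030479-114220756), a minor fibrillar chain that nucleates fibrils in cartilage, stood at 2 or more times the negative probe in CA1 and CA3 and in no other subregion. Its signal ran from 36.1 to 91.0 in CA1 with a median of 46.4, and from 15.2 to 73.6 in CA3 with a median of 33.8. In MC it ran from 13.3 to 21.0 and in SS from 12.5 to 21.5, at the negative probe. No CA1 value overlapped with a cortical value, while the CA3 range reached into the cortical one. The log2 difference between hippocampus and cortex was 1.21 (SE 0.11, adjusted p = 7.04e-12, higher in 10 of 10 mice). Col25a1, a transmembrane collagen of neurons that was found in amyloid plaques, averaged 27.0 in CA1 and 27.3 in CA3, against 17.2 in both MC and SS (0.63, SE 0.11, higher in 9 of 10 mice). These hippocampal AOIs were also part of the comparison group of CP, so the lower CP values of Col11a1 and Col25a1 given above are not separate evidence.

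The vascular chains Col4a1 and Col4a2 were higher in both hippocampal fields. Col4a1 had a median of 46.1 in CA1 and 50.2 in CA3, against 28.6 in MC and 25.4 in SS, and its lowest CA1 value of 35.9 lay above the highest cortical value of 34.3. Col4a2 had medians of 52.5 and 63.1, against 32.4 and 30.3. The log2 differences were 0.83 (SE 0.09) and 0.80 (SE 0.08), each higher in 10 of 10 mice. Lamb1 had medians of 39.7 in CA1 and 41.4 in CA3, against 21.0 in both MC and SS (0.90, SE 0.09, 10 of 10 mice). Lamc1, with which Lamb1 combines in brain vessels, was not called in this comparison. Beside these genes, 1 of 16 endothelial markers was called higher and 9 lower in the hippocampus, 0 and 8 of 14 mural markers, and 10 and 0 of 12 neuronal markers, against the 34.4% and 16.7% of all genes. The median log2 difference was -0.31 over the endothelial and -0.25 over the mural markers, beside -0.25 in the negative probe. These markers were not counted with scaling to the negative probe. What part these cell types had in the differences was not tested.

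Of 6 collagen VI genes, Col6a1, Col6a2 and Col6a3 were called lower in the hippocampus than in cortex, and Col6a4 (-0.11), Col6a5 (-0.25) and Col6a6 (-0.14) were not called. This collagen forms beaded filaments around cells from the products of Col6a1, Col6a2 and a further chain. Col6a1 (chr10:76708792-76726044) ran from 22.1 to 82.1 in MC with a median of 55.3 and from 36.5 to 91.2 in SS with a median of 56.1. In CA1 it ran from 8.28 to 22.2 and in CA3 from 9.85 to 26.7, close to the negative probe. No SS value overlapped with a hippocampal value, and the lowest MC value lay just below the highest ones of the hippocampus. The log2 difference was -1.69 (SE 0.10, adjusted p = 2.66e-16, lower in the hippocampus in 10 of 10 mice). Col6a2, the neighbouring gene (chr10:76595756-76623630), went the same way with 15.8 against 25.5 (-0.75, SE 0.11, lower in 10 of 10). Col6a3 was lower by less (-0.45, SE 0.12, lower in 9 of 10), a call lost with scaling to the negative probe and with p16 low AOIs alone. Col5a1 averaged 28.2 in MC and 34.0 in SS, against 17.2 in CA1 and 16.1 in CA3 (-0.83, SE 0.12). Col16a1 (-0.53, SE 0.10) was lower in the hippocampus in 10 of 10 mice, at a signal of 14.9 there, near the negative probe.

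**Figure D4:**
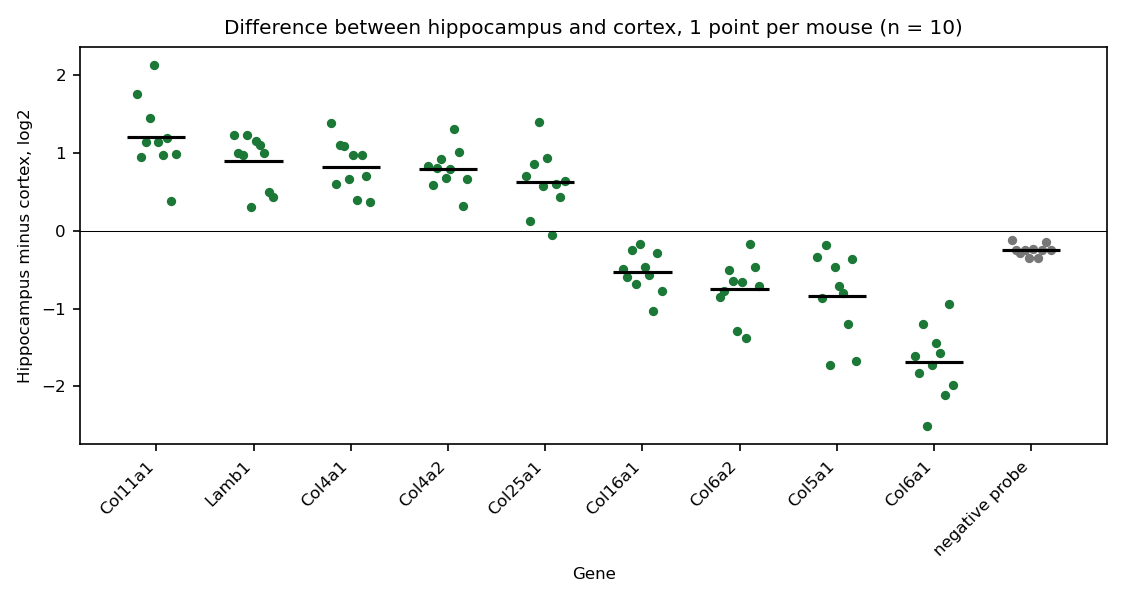
Log2 difference between hippocampus (CA1 and CA3) and cortex (MC and SS) of 9 genes called under each setting that tested them, and of the negative probe. There is 1 point per mouse, with the mean as a line. The points of Col11a1, Lamb1, Col4a1 and Col4a2 lie above 0 in 10 of 10 mice and those of Col6a1 between -2.51 and -0.94, while the negative probe lies between -0.35 and -0.12.

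Between CA3 and CA1 of the same 10 mice, Col12a1 and Lama5 were called higher in CA3 (2 of 55, against 5.04% of all genes) and Lamc1, Col6a4 and Col11a1 lower (3 of 55, against 12.7% of all genes). None of these 5 calls held under each of the other settings. Lama5 averaged 26.8 in CA3 and 18.1 in CA1 (log2 difference 0.54, SE 0.19, adjusted p = 0.0383), and its call was lost without any 1 of 5 mice (1157, 1162, 1163, 1168 and 1182). Col12a1, a fibril-associated chain, averaged 19.9 and 13.5 (0.62, SE 0.20), and its call was lost without any 1 of mice 1162, 1163, 1170 and 1182. Lamc1 averaged 16.8 in CA3 and 26.4 in CA1 (-0.68, SE 0.20), and Col6a4 15.8 and 24.4 (-0.61, SE 0.17). Col11a1 averaged 36.7 in CA3 and 51.6 in CA1 (-0.59, SE 0.14, adjusted p = 0.00247, lower in 9 of 10 mice), but with the p16 high AOIs alone the log2 difference was 0.10 with an adjusted p of 0.778. With scaling to the 75th percentile 9 members were higher in CA3, against 12.6% of all genes, and 1 lower, against 7.22%. With scaling to the negative probe 0 were higher, against 3.05% of all genes, and 5 lower, against 19.4%. Between MC and SS no member was called (0% of all genes were), and at an unadjusted p under 0.05 there were 2 members and 1100 of all genes. The 2 were Col26a1, higher in MC by 0.27, and Col5a1 (-0.23), both with an adjusted p of 0.903.

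The p16 label and the stress group were the study's own contrasts. Between p16 high and low AOIs of CP, paired in 7 mice, no collagen or laminin gene was called (limma, 0% of all genes), and at an unadjusted p under 0.05 there were 6 members and 1046 of all genes. The smallest p among the 55 belonged to Col1a1. Its CP signal in p16 high and low AOIs was 37.1 and 19.6 in mouse 1152, 59.4 and 34.1 in 1157, 42.6 and 17.3 in 1162, and 40.5 and 47.8 in 1170, the 4 CSS mice with both labels. In the 3 control mice it was 42.7 and 37.2 in 1151, 30.0 and 26.0 in 1168, and 33.9 and 21.6 in 1175. The p16 high AOI was higher in 6 of 7 mice (log2 difference 0.53, SE 0.16, 95% interval 0.19 to 0.87, limma adjusted p = 0.889). Its partner chain Col1a2 differed by 0.06 with an interval from -0.25 to 0.37, which does not show whether the type I chains differ in this. Col4a3 was lower in the p16 high AOI in 7 of 7 mice (log2 differences from -0.59 to -0.15, mean -0.33, adjusted p = 0.889). The others at this level were Col27a1 (-0.46), Col9a3 (-0.13), Col13a1 (0.40) and Col6a4 (0.67). In the same AOIs Ttr differed by -0.14, lower in the p16 high AOI in 7 of 7 mice, and Dcn by 0.14, neither called.

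For genes far above background in CP the 95% interval of the p16 difference ran from -0.26 to 0.06 for Col8a1, from -0.19 to 0.21 for Col18a1, from -0.31 to 0.18 for Lama5 and from -0.24 to 0.14 for Lamb1. These bounds lie well inside the differences of the same genes between CP and the other subregions, and they do not show that the values are equal. In hippocampus and cortex together (10 mice) no member was called either, against 0.386% of all genes, and 4 members had an unadjusted p under 0.05. They were Col4a2 (46.2 against 39.1, log2 difference 0.22, SE 0.07, adjusted p = 0.143, higher in 9 of 10 mice), Col5a3 (-0.30), Col10a1 (-0.31) and Col18a1 (-0.26). Col4a2 was called with scaling to the negative probe, a setting that called 6.43% of all genes higher.

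Between 5 CSS and 4 control mice no collagen or laminin gene was called in CP (limma, 0% of all genes), and at an unadjusted p under 0.05 there were 1 member and 655 of all genes. That member was Col10a1, a network collagen of hypertrophic cartilage, at 14.0, 14.7, 19.7, 12.3 and 14.7 in the CSS mice and 25.1, 24.4, 16.9 and 22.1 in the controls. The groups overlapped, and the values were close to the negative probe (log2 difference -0.55, SE 0.22, adjusted p = 0.999). For genes far above background the group means differed by less than the larger SD. Col8a1 averaged 185 ± 32.3 in CSS and 164 ± 35.3 in control mice (SD, n = 5 and 4), Col18a1 113 ± 24.7 and 96.4 ± 30.7, Lama5 113 ± 16.2 and 103 ± 19.4, and Col1a2 48.7 ± 13.4 and 36.9 ± 9.02. The 95% interval of the log2 difference ran from -0.23 to 0.58 for Col8a1, from -0.15 to 0.68 for Col18a1, from -0.25 to 0.50 for Lama5, from -0.05 to 0.79 for Col1a2 and from -0.52 to 0.70 for Col9a3. These intervals are wider than those of the p16 comparison, which was paired within mice, and the cause was not tested.

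**Figure D5:**
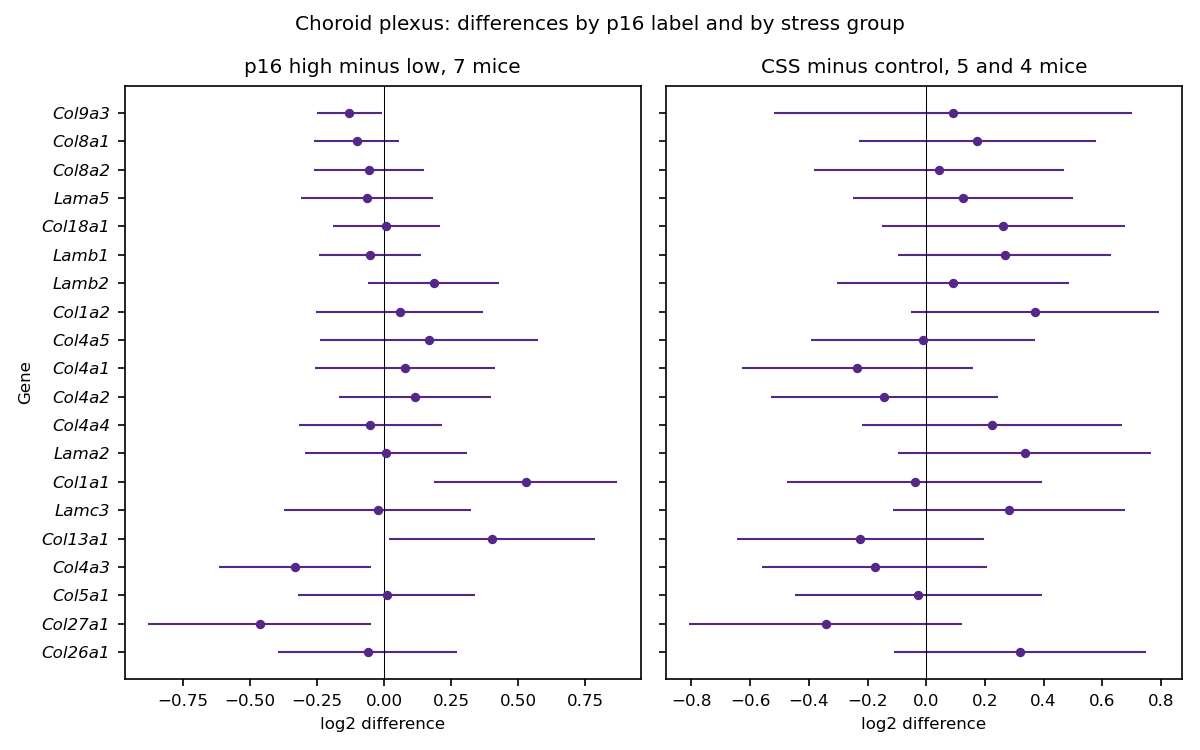
Log2 difference with its 95% interval for the 20 genes at 2 or more times the negative probe in CP, between p16 high and low AOIs of 7 mice (left) and between 5 CSS and 4 control mice (right). None passed the adjusted threshold, and Col1a1, Col13a1, Col4a3, Col27a1 and Col9a3 are the genes whose left interval leaves out 0.

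In hippocampus and cortex together, 0 members were called between 6 CSS and 4 control mice (limma, 0% of all genes), and an unadjusted p under 0.05 was found for 2 members and 391 genes in all. These were Col15a1 (log2 difference 0.30) and Col6a1 (-0.24), and the groups overlapped for both. Whether the p16 difference in CP depended on stress was tested on 4 CSS and 3 control mice. No member was called (0% of all genes), and Lamc1 (0.71) and Col9a1 (1.04) had an unadjusted p under 0.05, with 669 of all genes. Col9a1 was at the negative probe in CP.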

How the data were processed

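The deposited values are a signal per gene and AOI, which the authors scaled to a common median over genes in each AOI, as the values themselves show. Per the submitters' processing notes the genome build was mm10. The sources used here name no alignment or counting tool. Dividing by a factor per AOI gave whole counts within 0.01 for at least 99.985% of values, which served for depth only. Gene names are the file's, and all 55 matched RefSeq genes of GRCm38.p6, which is mm10. The mouse was the replicate. AOIs were averaged per mouse and condition as log2(signal + 1), so folds of low genes are understated, and all 19962 genes were fitted with limma 3.58.1 in R 4.3.3 (lmFit, eBayes with trend), 2-sided, with Benjamini-Hochberg adjustment over all genes and a threshold of 0.05. Comparisons within mice had the mouse as a block, from the mouse number in the labels. Over 41 pairs of AOIs of opposite p16 label, deviations from the group means had a median correlation of 0.08, with 16 above 0.1. For CSS against control, values were centred within subregion and p16 label and averaged to 1 value per mouse. SE and intervals are limma's. Any of the 55 genes could be named. Single mice are given for genes at 2 times the negative probe or more, and from each other list up to 4 genes with the smallest p, plus Ttr, Snap25, Pecam1, Pdgfrb, Dcn and Lum. Values of Col10a1 and Col9a1 are given outside that rule, after they were seen. Values of 1 gene are not reported here. The genes and lists were chosen with earlier results of these data known. The other settings were log2(signal + 10), genes above the median signal, quantile normalization, 75th percentile and negative probe scaling, no block, a random block over AOIs, either p16 label alone, and leaving out each mouse. Genes not above the median signal were not tested in the setting that kept genes above it. The fit was tested on simulated data with normal noise in each gene. These held no shift of whole AOIs, so they do not bear on the scaling.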

Additional observations from a re-analysis of the deposited data

Results flagged for a closer look

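Among 68 groups of 4 to 6 mice tested for a value far from the others, 2 had one, where chance gives about 1 in 20. Col11a1 in CA3 was 73.6 in CSS mouse 1163, and the next of the 6 CSS mice was at 39.4, a gap of 0.670 of the group's range. This mouse had a p16 high CA3 AOI alone. Col6a1 in SS was 91.2 in control mouse 1151, and the next of the 4 control mice was at 55.2, a gap of 0.880 of the range. The calls of both genes between hippocampus and cortex were kept without that mouse.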

How the results depend on the processing

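For CP against the other subregions, the count of genes called higher was 25, and 12 among genes above the median signal, a construction that leaves fewer genes to test. Without each mouse in turn it was 22 to 25 higher and 3 to 4 lower. For hippocampus against cortex, the 19 genes called lower became 8 among genes above the median signal, 11 with quantile normalization, 49 with 75th percentile scaling, 5 with negative probe scaling and 7 with p16 low AOIs alone, and 14 to 22 without each mouse, while the count of higher genes was 5 without any 1 mouse. The all-gene median of that comparison moved from -0.03 to -0.37 with 75th percentile scaling and to 0.20 with negative probe scaling, so calls near background follow the scaling. Lama5 there went from -0.29 to 0.094 with p16 low AOIs alone (adjusted p = 0.612), and the cause was not tested. For CA3 against CA1, the 2 higher calls became 9 with 75th percentile scaling, 0 with negative probe scaling, 1 without the block, 0 with p16 high AOIs alone and 1 with p16 low AOIs alone, and 0 to 3 without each mouse. The 3 lower calls became 1, 5, 3, 0 and 1 under the same settings, and 3 without any 1 mouse. Col11a1 there turned to 0.10 with p16 high AOIs alone, and the cause was not tested. For p16 high against low in hippocampus and cortex the count was 1 with negative probe scaling. The other counts were 0 under every setting that could be run.

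Without the replicate block, 23 genes were higher and 4 lower in CP, 5 and 19 in hippocampus against cortex, and 1 and 3 in CA3 against CA1. Over single genes, 471 values kept direction and call in CP, 37 lost the call and 0 turned. For hippocampus against cortex these were 369, 73 and 1, and for CA3 against CA1 70, 22 and 1. The planned count model was not run, since whole counts could not be shown for every AOI in the form it needs. Signal over background limits what can be read: 31 of the 55 genes never reached 2 times the negative probe.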

Other observations

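Of 99 partner genes in 5 lists, 17 were called higher in the hippocampus than in cortex and 28 lower, 45.5% in either direction against 51.1% of all genes. The share called higher was below the 34.4% of all genes in each list. The share called lower was above the 16.7% of all genes in 4 of the 5, the exception being the proteases and inhibitors. For the collagen-processing genes it was above by little, at 6 of 32. The list medians ran from -0.07 to -0.26, beside a log2 difference of -0.25 in the negative probe. Scaling to the negative probe called 1.68% of all genes lower, and the lists were not counted under it. Of 32 collagen-processing genes, 8 were called higher in the hippocampus and 6 lower, and the 4 with the smallest p were all higher: Ppib, P4hb, the shared subunit of prolyl hydroxylase (log2 difference 0.61), the collagen galactosyltransferase Colgalt1 (0.61) and the procollagen protease Bmp1 (0.61). Of 17 basement membrane partners, 2 were higher, Agrn (0.82) and Smoc2 (0.56), and 8 lower, among them Npnt (-0.54) and Vtn (-0.39). Of 21 collagen and laminin receptors, 2 were higher, among them the laminin-binding integrin subunit Itga7 (0.90), and 9 lower, among them Antxr1 (-0.55), Bcam (-0.39) and Adgrg1 (-0.37). Of 18 proteases and inhibitors, 5 were higher, among them Mmp17 (0.63) and Ctsb (0.56), and 2 lower, among them Timp2 (-0.60). Of 11 small leucine-rich proteoglycans, 0 were higher and 3 lower, among them Podn (-0.46), Dcn (-0.33) and Ogn (-0.31).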
